A study of Homo sapiens with 2 samples.

Results

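Interferon-stimulated genes are the antiviral genes that a cell switches on when it senses viral nucleic acid or when interferon binds its receptors. A list of 39 such genes was taken by name, by a rule that uses no measured value, although it was drawn up with earlier results of these data known. All 39 were found among the 33538 genes of the count table. They were read in A549, an established human lung adenocarcinoma line, carrying a Cas9 under a doxycycline-inducible promoter (the series' own design text names tamoxifen as the inducer instead). All cells, controls included, had received the same lentiviral library at a low dose of virus (0.3 particles per cell), with 100 gRNAs against 25 genes, mostly of chromatin and DNA methylation, and 20 non-targeting gRNAs, then puromycin, 2 days of doxycycline and 5 further days of growth. The Cas9 had itself been brought in with a lentivirus, and the labels name no interferon or viral RNA treatment. The cells were captured as 1 pool with a droplet kit that tags the 3′ ends of transcripts, so there was no replicate culture, and whether the line was 1 clone was not given in the sources used here.

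The table held 5744 cells and 210519208 transcriptome UMIs (unique molecular identifiers, each counted as 1 captured transcript), with a median of 34625 UMIs per cell and a range of 513 to 161719. A cell was placed in a pool when exactly 1 gRNA had more than 3 UMIs. This gave 3189 cells with 1 gRNA, 2269 with none and 286 with several. The control was the pool of 696 cells with 1 Non-Targeting gRNA, and 22 target genes had pools of at least 40 cells. At least 3 of 10 epithelial and A549 markers were detected in 92.8% of the cells, while at least 3 of 10 immune and blood markers were detected in 5 cells. Since all cells came from 1 pool, they are not replicates, and differences carry no p-value. The 95% intervals are exact intervals of counts and cover counting error only, so the spread between single non-targeting gRNAs is given beside them.

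The helicases RIG-I (gene DDX58) and MDA5 (IFIH1) bind viral RNA and act through MAVS, the kinase TBK1 and the factor IRF3, which turns on the interferon gene IFNB1 and can directly turn on a subset of the antiviral genes, among them IFIT1, IFIT2, IFIT3, ISG15, OASL and RSAD2. Secreted interferon binds its receptor and, through JAK1 and TYK2, assembles a complex with STAT2 and IRF9 that drives the wider programme, with MX1, IFI6 and OAS1 among its classical targets. Both IRF3 and this complex bind promoter elements built from repeated GAAA cores. A549 cells are widely used to study respiratory viruses, and both arms can work in them.

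Promoter sequence (250 bases before to 50 after the transcription start, RefSeq, GRCh38.p14) was held for 31 of the 39 genes, not for DDX58, IRF7, USP18, IFIT2, OAS2, OASL, MX2 and IFITM2. A pair of cores separated by any 2 bases, GAAANNGAAA, or TTTCNNTTTC on the other strand, occurred in 19 of these 31 promoters (61.3%), against 996 of all 27305 promoters (3.65%). Overlapping matches were counted. The promoters of STAT2, IRF1, IRF9, UBE2L6, HERC6, OAS1, RSAD2, CMPK2, SAMD9L, PARP9, IFI35 and XAF1 held no such pair of letters in this window, which says nothing about which factors bind there. The following 60-base stretches, written 5′ to 3′ on the strand of the gene with the matched letters in capitals, are those of genes on which the results below turn. IFIT1, IFIT3, ISG15, HERC5 and IFI27 were among the genes spread most unevenly over cells, IFI6 differed between sets of high cells, IFITM3 was higher with 3 gRNAs of DNMT1, and IFIT5 lies beside IFIT1 but was spread evenly over cells.
IFIT1, chr10:89392482-89392541, plus strand: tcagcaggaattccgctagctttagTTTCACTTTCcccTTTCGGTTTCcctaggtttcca
IFIT3, chr10:89327816-89327875, plus strand: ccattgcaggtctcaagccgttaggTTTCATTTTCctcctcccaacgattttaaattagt
IFIT5, chr10:89414498-89414557, plus strand: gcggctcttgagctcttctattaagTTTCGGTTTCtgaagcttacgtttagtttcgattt
ISG15, chr1:1013359-1013418, plus strand: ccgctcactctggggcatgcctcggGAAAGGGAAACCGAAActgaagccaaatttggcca
HERC5, chr4:88456969-88457028, plus strand: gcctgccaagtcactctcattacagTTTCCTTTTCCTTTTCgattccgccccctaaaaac
IFI6, chr1:27672314-27672373, minus strand: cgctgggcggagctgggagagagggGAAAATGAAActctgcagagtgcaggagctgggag
IFI27, chr14:94110603-94110662, plus strand: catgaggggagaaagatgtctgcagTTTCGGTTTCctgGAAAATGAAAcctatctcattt
IFITM3, chr11:320878-320937, minus strand: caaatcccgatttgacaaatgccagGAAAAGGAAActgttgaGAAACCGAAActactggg

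Genes with and without such a pair overlapped in how their UMIs were spread over cells. The Fano factor, the variance of UMIs per cell over their mean, had a median of 1.98 (1.07 to 45.1) over the 19 genes with the pair and of 1.48 (1.07 to 11.5) over the 12 without. IFIT5 held 3 overlapping or separate matches and IFIT1 held 2, yet this factor was 1.07 for IFIT5 and 24.5 for IFIT1. RSAD2, the gene with the largest share of its UMIs in 1 cell, held none in this window.

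Most of the 39 genes were detected in a minority of cells. A gene was detected in a median of 16.7% of the cells, 16 genes were detected in under 10% and 7 in under 2%, while 5 were detected in over 50%. The shares of detected cells describe capture as well as expression, and they are not an order of expression between genes. Free RNA in droplets was not tested, because all cells were of 1 line and no cell type that should lack these genes was present.

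Of the RNA sensors, DDX58 had 766 UMIs in 632 cells and IFIH1 had 449 UMIs in 393. Of the transcription factors, IRF1 was detected in 45.4% of the cells, STAT2 in 17.5%, IRF7, which amplifies interferon production, in 10.6% and IRF9 in 8.41%. ISG15, a ubiquitin-like protein that is joined to other proteins, was detected in 51.5%. The enzymes of that system were also present: UBE2L6, which carries ISG15, in 63.3%, HERC5, the main ligase, in 36.6%, its relative HERC6 in 16.7% and USP18, which removes ISG15, in 23.4%. Genes of each of these steps were therefore detected in the line, each in its own share of cells.

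The effectors covered the whole range. IFIT proteins bind viral RNA, and IFIT5 was detected in 21.2% of the cells, IFIT3 in 20.02%, IFIT1 in 12.7% and IFIT2 in 6.55%. OAS enzymes sense double-stranded RNA and start its breakdown, and OAS1 and OAS3 were detected in 34.3% and 31.2%, whereas OASL, a relative that boosts RIG-I signalling, was detected in 2.18% and OAS2 in only 11 cells. Of the Mx GTPases, MX1 had a UMI in 301 cells and MX2 in 9. IFITM2, IFITM3 and IFITM1, membrane proteins that hinder viral entry, were detected in 83.9%, 29.0% and 2.47% of the cells, and BST2 (tetherin), which holds budding virus at the surface, in 1.41%. The 3 IFITM genes are close copies whose starts lie within 25820 bases on chromosome 11, and how reads were divided between them is uncertain.

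RSAD2 (viperin), an enzyme that makes a chain-terminating nucleotide, had 37 UMIs in 15 cells, and its neighbour CMPK2, whose start lies 1078 bases away on the opposite strand, had 52 UMIs in 50 cells. The exonuclease ISG20 was detected in 29.96% of the cells, and the translation inhibitors SAMD9 and SAMD9L in 26.2% and 7.61%. PARP14 and the partner proteins PARP9 and DTX3L were detected in 64.8%, 23.4% and 25.1%. Among the other induced proteins, IFI35 was detected in 63.4%, IFI6 in 20.1%, IFI27 in 3.74%, IFI44 in 3.73%, IFI44L in 1.13% and XAF1 in 6 cells.

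The genes also differed in how their UMIs were spread over the cells. The spread was measured by the Fano factor, the variance of UMIs per cell over their mean, which is 1 when transcripts are caught independently at equal depth and rises with differences in depth too. It lay under 2 for 25 of the 39 genes and above 4 for 9. OASL had the highest value (52.0), followed by ISG15 (45.1), IFIT2 (29.6), IFIT1 (24.5), IFIT3 (17.7), RSAD2 (11.5), IFI27 (6.996), MX1 (4.93) and HERC5 (4.30). At the other end stood IFIT5 (1.07), CMPK2 (1.07), STAT2 (1.10) and IRF9 (1.11).

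A single cell held much of several genes. It held 20 of the 37 UMIs of RSAD2, which is 54.1%, and 129 of the 344 UMIs of OASL, which is 37.5%. The same cell held 127 UMIs of IFIT2 (17.99% of its UMIs), 149 of IFIT1 (11.5%) and 159 of IFIT3 (8.35%). By contrast, the highest cell held under 1% of the UMIs for 15 of the 39 genes, among them STAT2, IRF1 and PARP14.

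**Figure D1:**
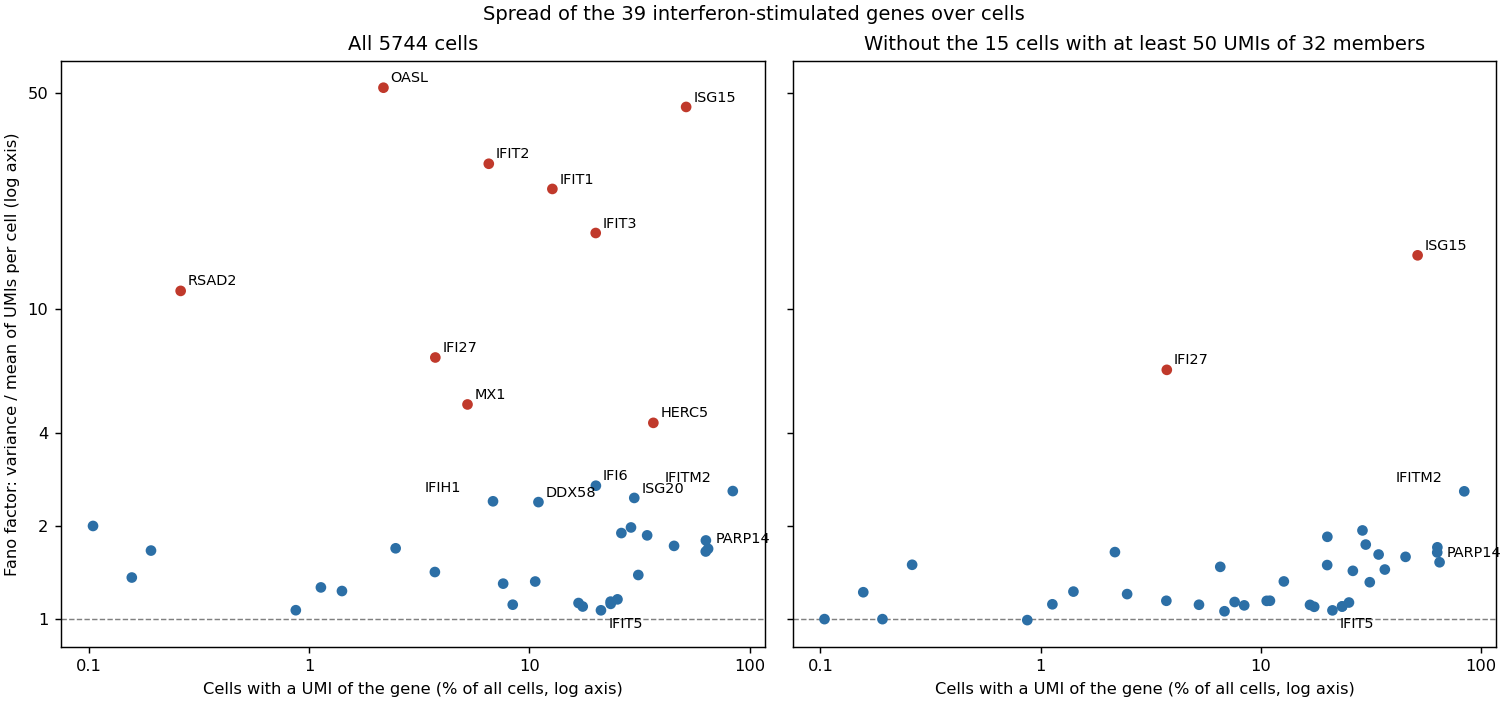
Each point is 1 of the 39 genes, with the share of cells in which it was detected on the x axis and its Fano factor (variance over mean of UMIs per cell) on the y axis, both on log axes. All cells are on the left, and the right leaves out the 15 cells with at least 50 UMIs summed over 32 of the genes. Red points lie above 4: 9 genes on the left and 2, ISG15 and IFI27, on the right.

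To find the cells behind these values, the UMIs of 32 genes were summed per cell. ISG15, IFI27, IFI6, IFITM2, IFITM3, BST2 and UBE2L6 were set aside from the sum. The median cell held 8 such UMIs from 5 of the 32 genes, and 237 cells held none. There were 15 cells with at least 50, a limit chosen after the values were seen, where the cell just inside it held 57 and the cell just outside held 42. They were 0.261% of all cells (95% interval 0.146 to 0.430%). These cells held 2546 of the 50339 UMIs of the 32 genes, which is 5.06%, but only 0.285% of all transcriptome UMIs. Their depth was ordinary, at a median of 38102 UMIs (23993 to 59663).

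Without the 15 cells the spread fell back for most of the concentrated genes. A fall is partly built in, since the cells were chosen by the sum of 32 of these genes. The Fano factor went from 52.0 to 1.65 for OASL, from 29.6 to 1.47 for IFIT2, from 24.5 to 1.32 for IFIT1 and from 4.93 to 1.11 for MX1. Values above 4 were left for ISG15 (14.96) and IFI27 (6.38), and 36 of the 39 genes lay under 2. The share of a gene's UMIs that lay in the 15 cells ran from 0.407% for IFITM2 to 73.3% for OAS2, with 64.2% for OASL, 56.8% for RSAD2, 40.5% for IFIT2, 32.5% for IFIT1, 24.1% for MX1 and 18.6% for ISG15. For IFIT5, a neighbour of IFIT1 on chromosome 10 with a start 22022 bases away, it was 0.783%.

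The 15 cells did not belong to 1 gRNA or 1 target. No gRNA was called in 4 of them, 1 carried several gRNAs, 2 carried a Non-Targeting gRNA, and the other 8 carried gRNAs against 7 genes: PCGF5 in 2 cells and TET1, EZH2, HDAC1, DNMT1, MVD and RPL18 in 1 cell each. As shares, 2 of 696 control cells were among them (0.287%, 0.0348 to 1.03%), 8 of 2493 cells with a targeting gRNA, and 4 of 2269 cells with no called gRNA (0.176%, 0.0481 to 0.451%). At least 3 epithelial markers were detected in 14 of the 15, and at least 3 markers of immune cells, fibroblasts, endothelium or HEK293T, the line commonly used to make lentivirus, were detected in none of them. The summed level of the 10 immune markers was 94.9 CPM in the 15 cells and 48.2 CPM in the others, all of it in the 15 from CD14 and CD68, while the other 8, PTPRC among them, had no UMI there. Its part in the results was not tested.

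The highest cell carried PCGF5_gRNA3 and held 907 UMIs of the 32 genes among its 35518. It had 316 UMIs of ISG15, 159 of IFIT3, 149 of IFIT1, 129 of OASL, 127 of IFIT2, 94 of HERC5, 33 of ISG20 and 30 each of DDX58 and SAMD9. The next cells held 206, 193, 182 and 159, with no gRNA, a Non-Targeting gRNA, DNMT1_gRNA3 and RPL18_gRNA3. This 1 cell therefore held 35.6% of what the 15 held together.

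Which genes were high differed between the 15 cells. IFIT2 exceeded MX1 in 9 of them and MX1 exceeded IFIT2 in the other 6, a division made after the values were seen and given with no test. In the 9 cells IFIT2 ran from 1 to 127 UMIs (median 22) and MX1 from 0 to 9 (median 0), while in the 6 cells IFIT2 ran from 0 to 4 and MX1 from 2 to 22. ISG15 was high on both sides, at 3154 CPM (counts of UMIs scaled to 1000000 per pool) in the 9 cells and 1896 CPM in the 6, and so was IFIT1, at 757 and 624 CPM with the highest cell included.

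Several other genes lay on the side of IFIT2. OASL was at 592 CPM in the 9 cells and 62.8 CPM in the 6, HERC5 at 485 and 122, IFIT3 at 944 and 247, and the factor IRF1 at 165 and 35.3. Outside the list, the antiviral RNA-binding protein ZC3HAV1 was at 220 and 15.7 CPM, and the chemokine CCL5 had UMIs in 3 of the 9 cells and 0 of the 6. OASL, HERC5 and IFIT3 had a UMI in 9 of the 9 cells and in 5 of the 6, and ZC3HAV1 in 9 and 2. The highest cell weighed on the sums. Over the other 8 cells of the first set, OASL was at 245 CPM, HERC5 at 238, IFIT3 at 541, IRF1 at 106 and ZC3HAV1 at 193, each above the 6 cells, while IFIT1 was at 364, below them.

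The 6 cells with more MX1 held more IFI6 (353 CPM, against 25.99 in the 9 cells), IFI35 (275 against 89.5), OAS1 (224 against 54.9), IRF7 (102 against 8.66) and IFITM1 (78.5 against 2.89). IFI27 had UMIs in 3 of the 6 cells and in 0 of the 9, and XAF1 was at 27.5 CPM in the 6 and had no UMI in the 9. IFI6 was detected in 6 of 6 of these cells and in 4 of the 9. The 2 control cells were both in this set.

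**Figure D2:**
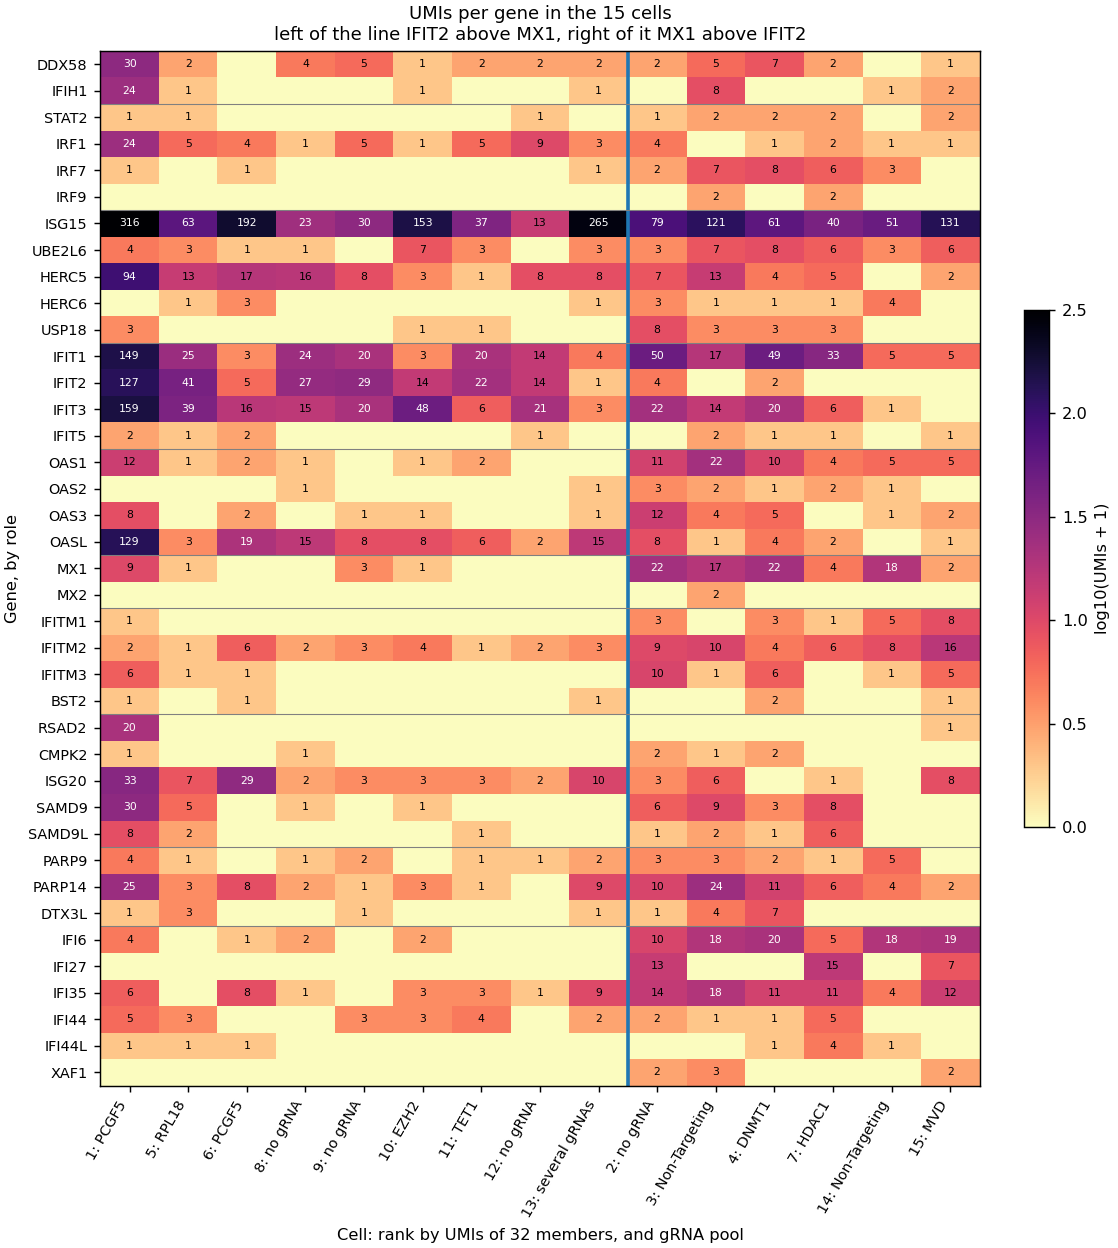
UMIs of each of the 39 genes (rows, ordered by role) in each of the 15 cells (columns, named by rank and gRNA pool), coloured by log10(UMIs + 1), with the count printed where it is above 0. The 9 cells left of the line had more IFIT2 than MX1 and no IFI27, and the 6 cells right of it had more MX1 and carried IFI6, at 5 to 20 UMIs.

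A list of 59 further genes of the pathway was read in the same way, 58 of which were measured. Of 12 interferon genes, 11 (IFNA1, IFNA2, IFNA5, IFNA6, IFNA8, IFNB1, IFNK, IFNL1, IFNL2, IFNL3 and IFNG) had no UMI in any cell. A count of 0 of 5744 cells allows a share of up to 0.0522% of cells with a UMI. IFNE, an interferon of epithelia that is made without infection, had 359 UMIs in 338 cells and none in the 15 cells.

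The 15 cells were compared with the other 5729 cells by their summed counts, over genes with at least 2000 UMIs, calling a gene at a 2-fold difference of CPM with 1 CPM added. Among all 7555 genes compared, 1.28% were at least 2-fold higher in the 15 cells and 3.68% at least 2-fold lower. Of 19 pathway genes compared, 6 were at least 2-fold higher and 0 lower. Among them were ZC3HAV1 (133 CPM against 22.6), PLSCR1, a membrane scramblase (130 against 33.6), SP100, a nuclear body protein (86.5 against 23.6), the DNA sensor IFI16 (39.9 against 15.2) and EIF2AK2, the kinase PKR (181 against 77.03).

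The receptor chains IFNAR1 and IFNGR1, JAK1, MAVS and IRF3 were not among the higher genes, whereas the sensors IFI16 and EIF2AK2 were. The ratio of the 15 cells to the others was 0.929 (0.463 to 1.66) for the receptor chain IFNAR1, 1.23 (0.616 to 2.21) for IFNGR1, 0.997 (0.797 to 1.23) for JAK1, 0.781 (0.463 to 1.24) for MAVS and 0.571 (0.373 to 0.837) for IRF3. Several pathway genes were too rare for the comparison. DHX58, a RIG-I relative, had 7 of its 48 UMIs in the 15 cells, APOL1 32 of 724, CCL5 19 of 173, and the chemokine CXCL10 4 of 5, all 4 in the highest cell. Outside both lists, the genes furthest up in the 15 cells were named after their values were seen. By log2 ratio, RARRES3 (121 CPM against 10.5), PRR15 (64.9 against 14.3), the pro-apoptotic PMAIP1 (89.9 against 20.2) and ZNFX1 (96.5 against 22.9) came first. Next were C19orf66 (41.6 against 9.57), SOD2 (84.9 against 22.8), WARS (98.2 against 26.8) and the immunoproteasome subunit PSMB9 (91.5 against 26.5).

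ISG15 stayed concentrated without the 15 cells. A further 25 cells held at least 20 UMIs of it, with a median of 38 and a highest count of 173, while holding 7 to 42 UMIs of the 32 genes (median 15, against 7 in the remaining cells). Of these 25 cells, 9 had no called gRNA, 1 was a control cell, 2 had several gRNAs and 13 carried gRNAs against 9 target genes. Their depth was above the common value, at a median of 42911 UMIs.

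In these 25 cells a set of other members was also high for their depth. IFI27 was at 68.6 CPM against 1.15 in the remaining cells (75 UMIs in 7 cells), BST2 at 10.98 against 0.340 (12 UMIs in 8 cells), OASL at 20.1 against 0.484, IFI6 at 61.3 against 6.65, IFITM3 at 69.5 against 12.3 and ISG20 at 52.1 against 12.0. Apart from ISG15, which chose the cells, the interval of the ratio lay above 1 for 18 of the other 38 genes and below 1 for 0, against 5.05% and 5.44% of all genes with at least 10 UMIs. The greater depth of these cells moved with this, and its part was not tested. MX1, at 3.66 CPM against 1.47 (4 UMIs), and IFIT5, at 8.23 against 6.63, were not among the 18.

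Between cells, most of the correlation among the genes was lost without the 15. The 15 cells were chosen by the sum of 32 of these genes, so some loss follows from the choice itself. The correlation of each gene with the mean of the other 38, on ln(counts per 10000 + 1), ran from 0.0501 to 0.505 (median 0.216) over 5744 cells of 1 pool, and 23 genes reached 0.2. Without the 15 cells the range was -0.00206 to 0.230, and 3 genes reached 0.2: ISG15 (0.230), IFITM3 (0.227) and IFI35 (0.204). Of 595 gene pairs, 39 reached 0.2, led by IFIT2 with OASL (0.57) and IFIT1 with OASL (0.53). In the other cells, 2 of 561 pairs did, IFITM2 with IFITM3 (0.24) and ISG15 with IFI6 (0.20), while IFIT2 with OASL stood at 0.041. The 595 pairs left out some of the 39 genes, and the 561 pairs covered fewer genes still.

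Neighbours in the genome differed in this. In the IFIT cluster IFIT1 with IFIT2 stood at 0.46, IFIT1 with IFIT3 at 0.42 and IFIT2 with IFIT3 at 0.40, and without the 15 cells at 0.081, 0.074 and 0.033. PARP9 and DTX3L, whose starts lie 239 bases apart on opposite strands of chromosome 3, had a correlation of 0.031. DTX3L was detected in 30.3% of the cells with PARP9 and in 23.6% of those without. OAS1 with OAS3, whose starts are 32195 bases apart, stood at 0.074 and SAMD9 with SAMD9L at 0.13. The mean of the genes also followed depth, with a correlation of 0.205 with log10 of the UMIs per cell. Outside the lists, the genes most like the mean of the 32 were DDX60 (0.259), B2M (0.252) and CD63 (0.249), and without the 15 cells these stood at 0.069, 0.285 and 0.323. All of these are weak correlations in sparse counts.

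The target pools were compared with the control through the summed level of the 32 genes. The control stood at 235 CPM (229 to 241), and the 22 pools ran from 198 CPM for SUV39H1, a histone H3 lysine 9 methyltransferase, to 497 CPM for PCGF5, a Polycomb subunit. The pools of RPL18 (306 CPM), DNMT1 (295 CPM) and TRIM28 (262 CPM) came next after PCGF5. The 15 non-targeting gRNAs that had 10 or more cells ran from 197 to 431 CPM, the top one carrying 1 of the 15 cells, and their ratios to the other control cells from 0.837 to 1.90. Thus only PCGF5 lay above all single non-targeting gRNAs.

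The PCGF5 value rested on few cells. The ratio to control was 2.12 (2.01 to 2.23), and 907 of the 1970 UMIs, or 46.0%, came from 1 of 99 cells. Without the highest cell of each pool the ratio was 1.19, and without the 15 cells it was 1.08 (1.00 to 1.15). The 15 cells were chosen by this same sum, so a lower level without them is built in for any pool that held some. They made up 2.02% of the PCGF5 cells (0.246 to 7.11%) and 0.287% of the control cells (0.0348 to 1.03%). With single gRNAs the ratios were 1.11, 0.998, 5.21 and 1.33, and without the 15 cells 1.15, 1.04, 1.09 and 1.08. The PCGF5 transcript itself stood at 110% of control (90.0 to 133%), so the pool's own target was not lower.

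The same held for the next pools. Without the 15 cells, RPL18 went from 1.30 to 1.00 and DNMT1 from 1.26 to 1.02, falls that are again partly built in by the choice of the cells. TRIM28, a corepressor of transposable elements, held none of the 15 cells, so its ratio moved from 1.12 (1.04 to 1.20) to 1.16 (1.08 to 1.25) through the control alone, and its 4 gRNAs stood at 1.30, 1.16, 1.21 and 0.984. These values lay inside the range of the non-targeting gRNAs without the 15 cells, 0.872 to 1.25, except the 7 cells of TRIM28_gRNA1. SUV39H1, at 0.878 (0.802 to 0.959) without the 15 cells, came from 1 gRNA: SUV39H1_gRNA1 stood at 0.693 in 44 cells, below every non-targeting gRNA, while the others stood at 1.22, 1.24 and 0.986.

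**Figure D3:**
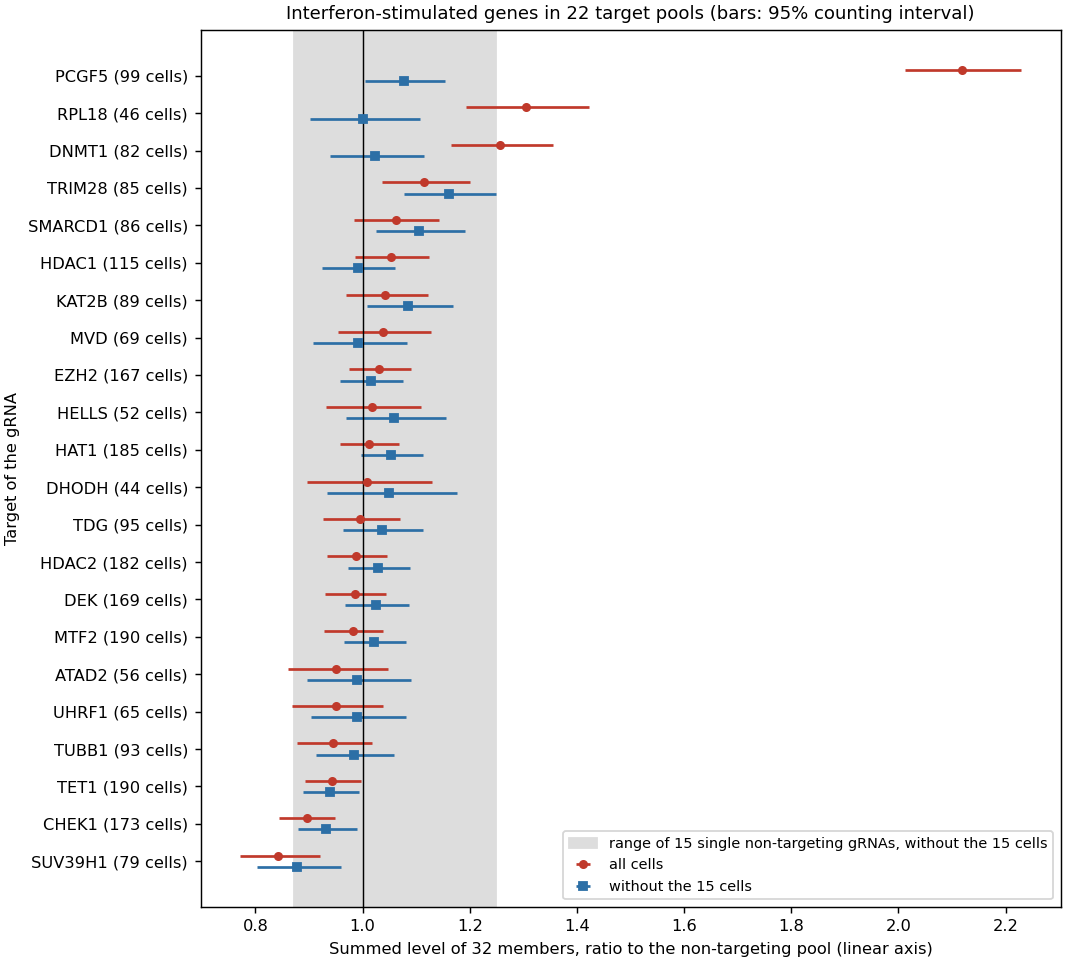
Ratio of the summed level of 32 genes in each of 22 target pools to the control pool, for all cells (red) and without the 15 cells (blue), with bars for exact 95% counting intervals on a linear axis. The grey band spans 0.872 to 1.25, between the lowest and highest non-targeting gRNA without the 15 cells; all blue points lie in it, while in red PCGF5 stands at 2.12.

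Gene by gene, a member was called when its CPM with 1 CPM added differed at least 2-fold, over genes with at least 50 UMIs in the pool and control together. Over all 22 pools, 24 of 604 pairs of member and pool were at least 2-fold higher and 6 lower, against 0.164% and 0.583% of all gene and pool pairs. Of the 24, 6 (IFIT2 in 4 pools, OASL and IFI27 in 1 each) had under 50 control UMIs and reached the minimum only through the pool in which they were high. Over the 27 members with at least 50 control UMIs, 18 of 594 pairs were higher and 6 lower. The share over all genes with that limit on control UMIs was not computed, so these counts have no background beside them. Without the 15 cells, 3 of 579 were higher and 4 lower, against 0.158% and 0.587%. Those cells were chosen by the summed UMIs of most members, so some loss of higher calls follows from the choice itself. The 3 that were left were ISG15 and IFITM3 in the DNMT1 pool and SAMD9L in the DHODH pool, where SAMD9L had 7 UMIs.

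For PCGF5, 10 of 29 members were called higher and 0 lower (0.152% and 0.237% of all genes compared). IFIT2 and OASL, with 38 and 12 control UMIs, reached the minimum of 50 UMIs only with the UMIs of this pool. Over the 27 members whose control UMIs alone reached it 8 were higher, with no share over all genes computed for that limit. Without the 15 cells 0 of 27 were higher (0.0339%), a fall that is partly built in, since the cells were chosen by their member UMIs. OASL had 148 UMIs against 12 in control, 129 and 19 of them in 2 cells and none in the other 97. IFIT2 stood at 36.8 CPM against 1.51, a log2 ratio of 3.91 that went to 0.87 without the 15 cells. IFIT1 stood at 41.6 CPM against 4.89 (log2 ratio 2.86, then -0.21), and ISG15 at 158 CPM against 37.9 (2.03, then -0.05). The shares of cells with a UMI differed less than the levels, and not in the same way for each gene. IFIT1 was detected in 13.1% of PCGF5 cells and 12.2% of control cells, and ISG15 in 56.6% and 50.6%. IFIT2 was detected in 14.1% of PCGF5 cells (7.95 to 22.6%) against 4.89%, and IFIT3 in 29.3% (20.6 to 39.3%) against 18.8%, and their log2 ratios without the 15 cells were 0.87 and 0.46. The other genes called were DDX58, IFIH1, HERC5, IFIT3, ISG20 and SAMD9L.

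DNMT1, the maintenance DNA methyltransferase, had its transcript at 69.1% of control (58.0 to 81.9%) in 82 cells. Of 27 members, 5 were called higher and 0 lower, against 0.494% and 0.783% of all genes. IFIT1 (49 of 63 UMIs in 1 cell), MX1 (22 of 27) and IFIT3 (20 of 42) were called through the 1 of the 15 cells in this pool, and their log2 ratios without the 15 cells were 0.35, 0.50 and 0.27. ISG15 and IFITM3 were also called without the 15 cells, when 0.503% of all genes were called higher.

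IFITM3 was higher with each DNMT1 gRNA that had cells. In control it stood at 12.5 CPM, with single non-targeting gRNAs at 1.56 to 18.6 CPM. DNMT1_gRNA2 stood at 22.2 CPM (11 cells), DNMT1_gRNA3 at 25.8 CPM (11 cells) and DNMT1_gRNA4 at 32.5 CPM (60 cells). All 3 lay above the highest non-targeting gRNA, although the first rests on 8 UMIs and has a ratio interval of 0.760 to 3.54. This was also true of SUV39H1_gRNA4, at 28.6 CPM (11 cells, 9 UMIs), and TRIM28_gRNA4, at 19.4 CPM (14 cells, 10 UMIs). Over the whole SUV39H1 and TRIM28 pools IFITM3 stood at 12.1 and 13.1 CPM. Over the DNMT1 pool IFITM3 stood at 29.9 CPM, a ratio of 2.40 (1.85 to 3.07). No more than 15 of its 79 UMIs lay in 1 cell, and it was detected in 40.2% of cells against 29.3%. Leaving out the cell with the most IFITM3 in each pool gave a log2 ratio of 0.96 in place of 1.197, under the 2-fold limit.

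ISG15 in the DNMT1 pool was less even, and leaving out the cell with the most ISG15 in each pool gave a log2 ratio of 0.97, also under the limit. It stood at 87.8 CPM against 37.9 (log2 ratio 1.19, and 1.06 without the 15 cells). With DNMT1_gRNA3 and DNMT1_gRNA4 it stood at 153 and 84.8 CPM, of which 61 of 71 and 51 of 154 UMIs lay in 1 cell each, and with DNMT1_gRNA2 at 19.4 CPM. It was detected in 51.2% of DNMT1 cells and 50.6% of control cells. Single non-targeting gRNAs ran from 20.1 to 148 CPM. The highest, at 148 and 136 CPM, had 85 of 95 and 121 of 139 UMIs in 1 cell, and the next stood at 41.2 CPM. IFI27, under the minimum of 50 UMIs, had 16 UMIs in 7 DNMT1 cells, all with DNMT1_gRNA4, which gave 6.06 CPM against 1.11.

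**Figure D4:**
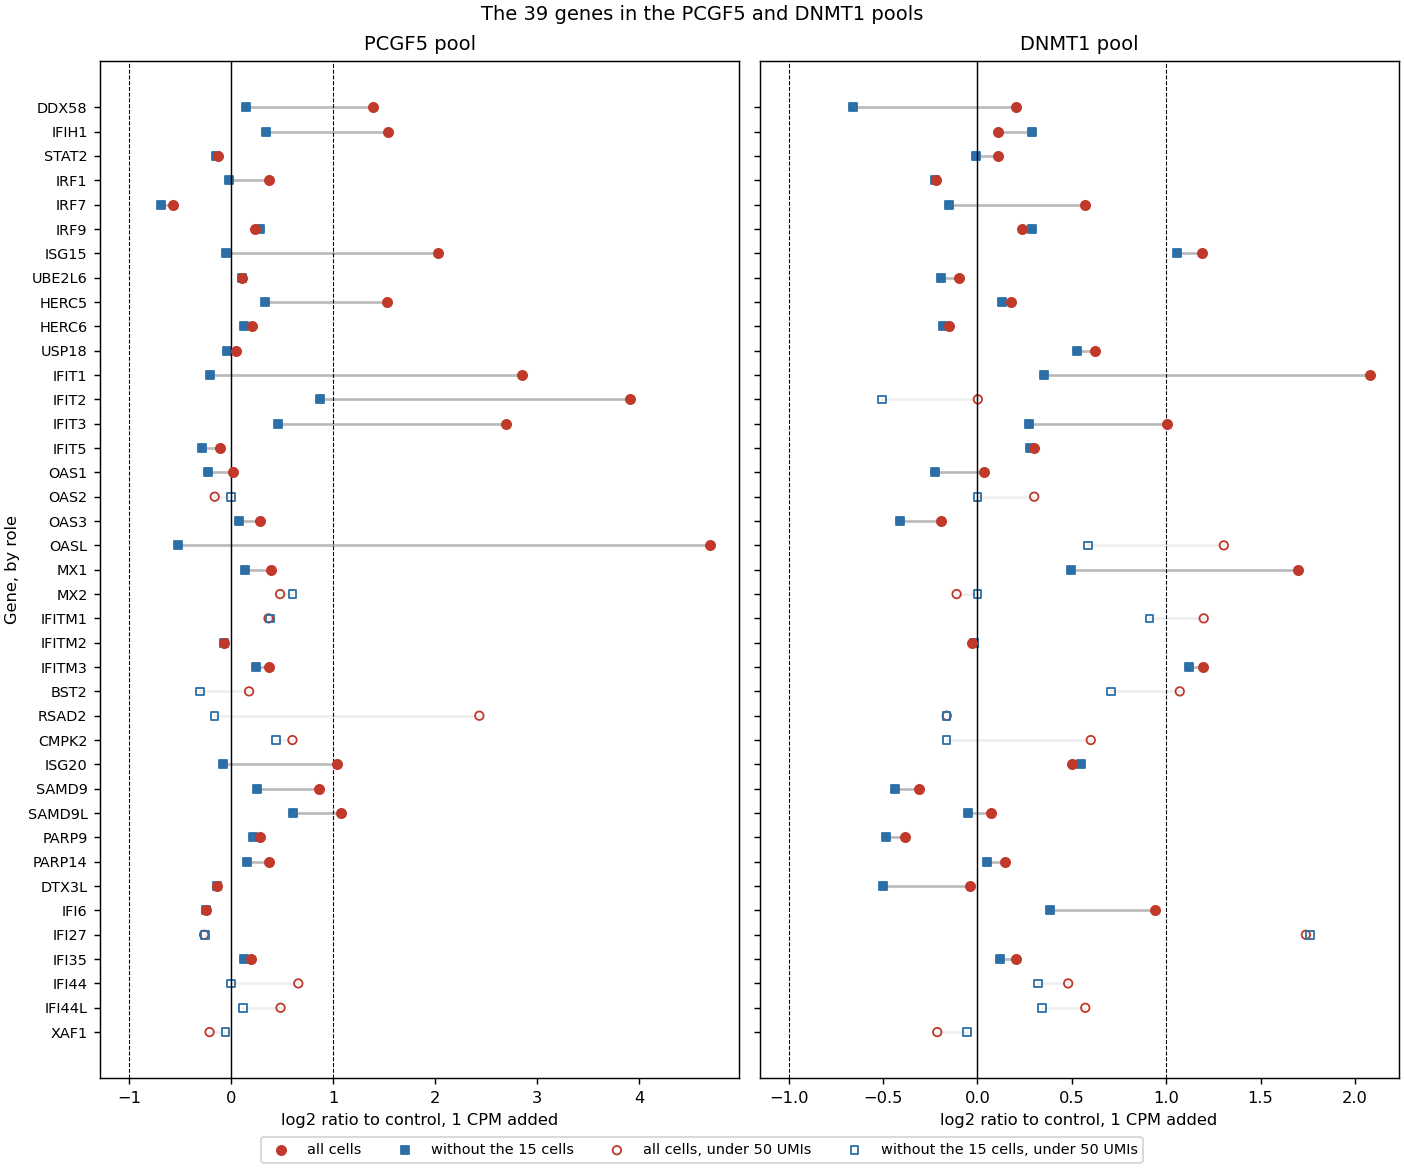
Log2 ratio to control of each of the 39 genes in the PCGF5 pool (left) and the DNMT1 pool (right), with all cells (red circles) and without the 15 cells (blue squares); open symbols mark genes with under 50 UMIs in pool and control, and dashed lines mark 2-fold. Red points past 1 move back inside the lines on the left, while ISG15, IFITM3 and, on under 50 UMIs, IFI27 stay past 1 on the right.

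UHRF1, the partner that brings DNMT1 to newly copied DNA, did not share the IFITM3 value. Its transcript stood at 74.4% of control (46.0 to 115%) in 65 cells. IFITM3 stood at 12.6 and 9.05 CPM with UHRF1_gRNA2 and UHRF1_gRNA3, inside the non-targeting range. ISG15 stood at 62.1 CPM, with 77 of 150 UMIs in 1 cell, although it was detected in 69.2% of the cells (56.6 to 80.1%) against 50.6%, and in 34.4% against 22.6% once each cell was thinned to 10000 UMIs. With UHRF1_gRNA2 it stood at 109.7 CPM and with UHRF1_gRNA3 at 28.0 CPM. IFI27 had 15 UMIs, 11 of them in 1 cell. Of 27 members, 0 were called higher and 1 lower (0.188% and 0.913% of all genes): MX1 had 0 UMIs against 62 in control. With the floor of 3 UMIs in the pool this is at least 1.98-fold lower. However, 17 and 18 of the 62 control UMIs lay in the 2 control cells among the 15. Without the 15 cells MX1 fell under the minimum of UMIs, so that 0 were called lower (0.922%).

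TRIM28, at 71.6% of control (65.2 to 78.5%), had 0 of 27 members called in either direction (0.068% of all genes higher, 0.357% lower), and the median log2 ratio of its members was -0.004. SUV39H1, at 50.3% of control (23.7 to 94.7%) on 10 UMIs, had 0 called higher (0.264%) and 1 lower (0.912%): IFIT3 stood at 2.93 CPM on 8 UMIs against 7.43 CPM, a log2 ratio of -1.10, and it stood at the 2-fold limit itself without the 15 cells (0.92%). None of the pathway genes outside the list, 29 or 30 of which had enough UMIs, was called in any of these 5 pools.

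**Figure D5:**
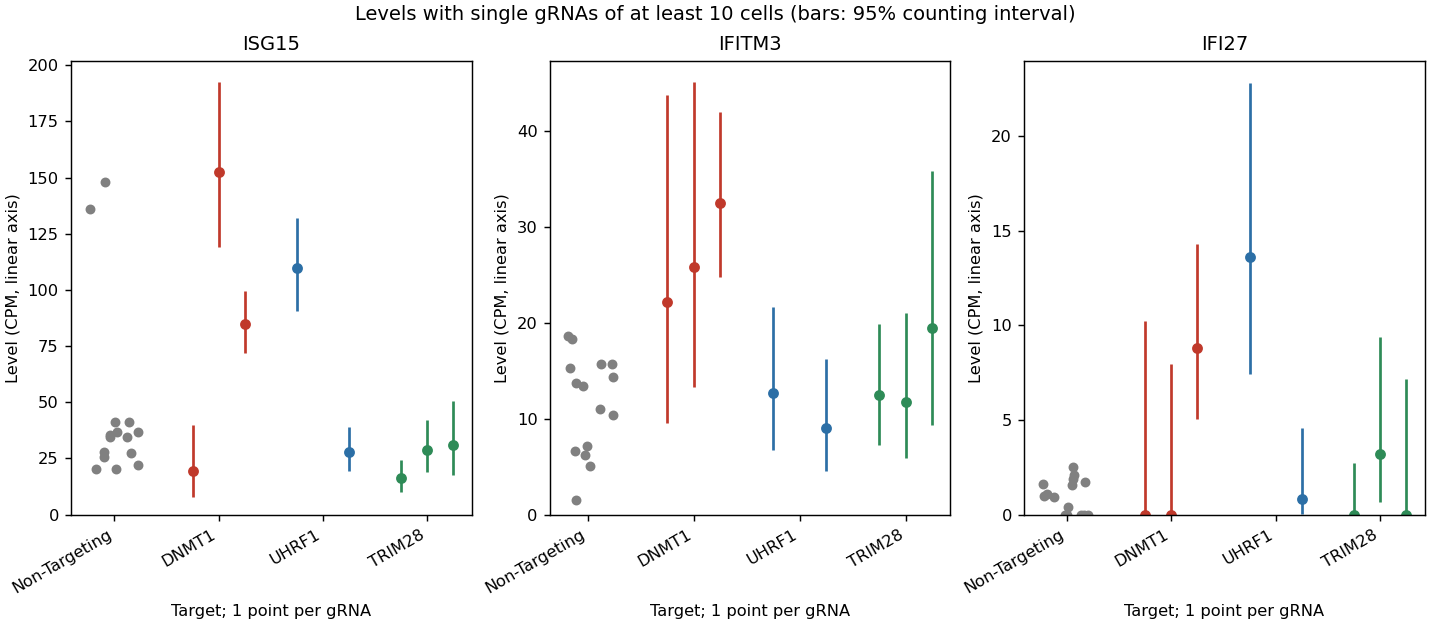
Levels in CPM, on linear axes, of ISG15, IFITM3 and IFI27 with single gRNAs of at least 10 cells: grey points are the 15 non-targeting gRNAs, and coloured points with exact 95% counting intervals are those of DNMT1, UHRF1 and TRIM28. For IFITM3 the 3 DNMT1 points, at 22.2 to 32.5 CPM, lie above all grey points (1.56 to 18.6 CPM). So does TRIM28_gRNA4, at 19.4 CPM, while for ISG15 2 grey points reach 136 and 148 CPM.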

How the data were processed

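Transcriptome and gRNA-enrichment libraries of 1 pool of cells were sequenced. The authors processed them with Cell Ranger 3.1.0 against GRCh38 (stated in the submitters' processing notes and the study's methods) and deposited raw UMI counts per gene and gRNA in 5744 cell barcodes, none repeated. Their gRNA calls and mutation calls were not used here. The study found mutant gRNAs in part of the cells annotated with no gRNA or with 1 intact gRNA, and such gRNAs appeared dysfunctional. The pools used here may therefore hold cells with mutant gRNAs.

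The 39 members and the other lists were chosen with earlier results of these data known. UMIs were summed over the cells of a pool, divided by the pool's total and given as CPM. A cell's gRNA was called at more than 3 UMIs. Log2 ratios to control had 1 CPM added, and a call took a 2-fold difference and at least 50 UMIs in pool plus control (2000 UMIs for the 15 cells). Intervals were exact Poisson, Clopper-Pearson and, for ratios, conditional binomial. Detection, depth-thinned to 10000 UMIs, left out 427 shallower cells. The text names the members, pathway genes called or among the 5 with the highest correlation with the mean of the 32 members, and the 10 other genes most correlated with it over cells. Any other gene in the text was picked from its values. The values of 1 pathway gene are not reported here. The 7 genes set aside from the sum had been described as detected in most cells, but only ISG15, UBE2L6 and IFITM2 were. No doublet caller was run, and the 286 cells with several gRNAs were in no pool. The calculations recovered most known changes in simulated counts. These were summed counts with Poisson spread only, so they do not check calls that rest on 1 cell.

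Promoters came from RefSeq and gene positions from GENCODE, both on GRCh38. Python 3.11.15, NumPy 2.4.6, SciPy 1.17.1, pandas 2.3.3, scikit-learn 1.9.0 and matplotlib 3.10.9 were used. The alternatives were other gRNA calls, deep cells only, leaving out the highest cell or 1 gRNA, thinning, another added CPM, no minimum and cell means. Leaving out the 15 cells, all 39 members and other limits for the 15 cells were chosen after seeing the data.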

Additional observations from a re-analysis of the deposited data

How the results depend on the processing

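Of 179 alternative values, 138 kept their direction and stayed near the reported value, 39 moved and 2 turned direction. No paired analysis was possible because there was 1 pool of cells. The ratio of the PCGF5 pool to control was 1.19 without the highest cell of each pool, 1.08 without the 15 cells and 1.91 with all 39 members. The members called higher there numbered 2 without the highest cells, 6 with 10 CPM added and 0 without the 15 cells, and 19 members in place of 31 had a larger share of cells than control after thinning. For DNMT1 the ratio was 1.02 both without the highest cells and without the 15 cells, and 1.16 as a mean over cells. The members called higher numbered 3 with gRNAs called above 10 UMIs, 1 without the highest cells, 2 with 10 CPM added, 9 with no minimum of UMIs and 2 without the 15 cells. The TRIM28 ratio was 1.03 with all 39 members. For UHRF1, 0 members were called lower without the highest cells, with 10 CPM added or without the 15 cells, and 1 was called higher with no minimum. For SUV39H1, 0 were called lower without the highest cells or with 10 CPM added, and 2 with no minimum. Leaving out each gRNA in turn gave PCGF5 ratios of 1.18 to 2.63 with 2 to 11 members higher (the lowest of both without PCGF5_gRNA3), DNMT1 ratios of 0.993 to 1.83 with 1 to 8 higher (the lowest without DNMT1_gRNA3, where the direction turned), UHRF1 counts of 0 to 1 higher and 1 to 3 lower, and SUV39H1 ratios of 0.737 to 1.12, turned without SUV39H1_gRNA1, with 1 to 3 lower. After thinning, 10 members in place of 23 correlated at 0.2 or more, or 3 without the 15 cells, and the median cell held 2 members in place of 5. A limit of 30 UMIs took in 44 cells in place of 15. Shares of all genes called are given only for the reported setting and without the 15 cells. The counts of called members under the other settings therefore have no background beside them. The cause of these differences was not tested, beyond the cells each setting leaves out. Members with few UMIs, such as XAF1 and MX2, could show no 2-fold difference at this depth.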

Other observations

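Over the 5744 cells of 1 pool, which share depth and library, the genes outside the lists that correlated most with the mean of the 32 members were DDX60, an antiviral helicase cofactor (0.259, and 0.069 without the 15 cells), B2M, the light chain of MHC class I (0.252 and 0.285), CD63 (0.249 and 0.323), ITM2B (0.227 and 0.259), HLA-C (0.217 and 0.237), MGST1 (0.217 and 0.279), GRN (0.214 and 0.262), SPP1 (0.209 and 0.258), SQSTM1 (0.208 and 0.258) and TIMP1 (0.206 and 0.257). Of these 10 genes, DDX60 had the lower correlation without the 15 cells and the other 9 had the higher one. Among the pathway genes the highest values were those of CXCL10 (0.438, on 5 UMIs), DHX58 (0.222), CCL5 (0.185), PLSCR1 (0.182) and GBP4 (0.175).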
